A study of Mus musculus with 6 samples.

Results

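Among the 32953 cells of a CD45+ sort from arthritic mouse joints, 151 carried the transcripts of connective-tissue cells. They were chosen by their counts as deposited. Each had at least 1 UMI (unique molecular identifier, 1 captured transcript) of 3 or more of 5 extracellular-matrix genes. These genes were Col1a1, Col1a2, Col3a1, Dcn and Prg4. The chosen cells are called matrix-gene cells here. The proposed name was synovial fibroblasts. Most of the cells carried fibroblast genes that the choice did not use, but smaller groups carried genes of bone, cartilage, tendon or marrow stroma, and 35 cells also carried at least 3 of 6 genes that leukocytes share, so the narrower name was not used for the whole set.

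The cells came from C57BL/6 mice that had been immunized with methylated bovine serum albumin (mBSA) in complete Freund's adjuvant and given mBSA into the knee on day 21, a model called antigen-induced arthritis (AIA) in which one joint becomes inflamed. From day 21 the mice received intraperitoneal phosphate-buffered saline (PBS, the vehicle; 2 samples) or PEPITEM, an immunoregulatory peptide given in a PEG-linked form at 300 μg (4 samples). Joints of the lower limbs were digested with collagenase at the peak of inflammation, and CD45+ cells, that is leukocytes, were sorted and sequenced from the 3′ ends of their transcripts. Immunization and challenge were common to both groups, and no unchallenged mice were among the samples. The cell barcodes carry a library number from 1 to 6 that no source used here links to a treatment. Vehicle and PEPITEM were therefore not compared, and the spread over libraries below mixes treatment with every other difference between them. The mice were wild-type males, 8 weeks old when purchased.

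Synovial fibroblasts build and maintain the joint lining. Those of the surface layer secrete lubricin (encoded by Prg4) and hyaluronan into the joint fluid, whereas those of the sublining lie around vessels, make fibrillar collagens and, in arthritis, secrete chemokines and Il6 that recruit and activate leukocytes. They do not make CD45, the tyrosine phosphatase encoded by Ptprc on which the sort was based.

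The 5 genes of the rule encode the 2 chains of type I collagen (Col1a1, Col1a2), the chain of type III collagen (Col3a1), decorin, a small proteoglycan that binds collagen fibrils (Dcn), and lubricin (Prg4). In GRCm38.p6, as annotated by RefSeq, Col1a1 lies on chromosome 11 at 94936224 to 94953042, Col1a2 on chromosome 6 at 4505618 to 4541543, Col3a1 on chromosome 1 at 45311538 to 45349706, Dcn on chromosome 10 at 97479500 to 97518163 and Prg4 on chromosome 1 at 150449412 to 150466221. Of these, 2 have an entry in the RefSeq promoter table used here, Col1a2 and Col3a1, and none is listed for Col1a1, Dcn or Prg4. The 120 bases before each listed start are shown as a description, with capitals marking the CCAAT box, searched as CCAAT on either strand. The Col1a2 stretch is chr6:4505498-4505617 and the Col3a1 stretch chr1:45311418-45311537, both on the plus strand of GRCm38.p6.
Col1a2: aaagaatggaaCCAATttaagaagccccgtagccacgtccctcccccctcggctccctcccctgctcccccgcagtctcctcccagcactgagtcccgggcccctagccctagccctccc
Col3a1: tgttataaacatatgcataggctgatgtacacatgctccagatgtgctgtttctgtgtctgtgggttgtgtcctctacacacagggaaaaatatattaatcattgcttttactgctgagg
The Col1a2 stretch held 1 match, which began 109 bases before the listed start, and the Col3a1 stretch held 0. Of 27025 genes with a listed start, 6548 (24.2%) had a match in the same window. A match is a description of the letters and not a site.

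The matrix-gene cells made up 0.458% of all cells (151 of 32953; Wilson 95% interval 0.391 to 0.537). Library 1 held 53 of 3345 cells (1.58%), library 2 held 8 of 5809 (0.138%), library 3 held 12 of 2919 (0.411%), library 4 held 8 of 3996 (0.200%), library 5 held 55 of 9345 (0.589%) and library 6 held 15 of 7539 (0.199%). The lowest, median and highest libraries thus had 0.138%, 0.306% and 1.58%, and libraries 1 and 5 together held 108 of the cells (71.5%). The interval of library 1 (1.21 to 2.07) lay above those of the other 5. Intervals and floors cover counting error only. The denominator is set by how many leukocytes passed the sort, and among cells that were not neutrophil-like the share was 0.700%. Comparison cells are named by markers only: a neutrophil-like, macrophage-like or mast cell-like cell had at least 3 of the 5 markers of that class and of no other class listed.

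**Figure D1:**
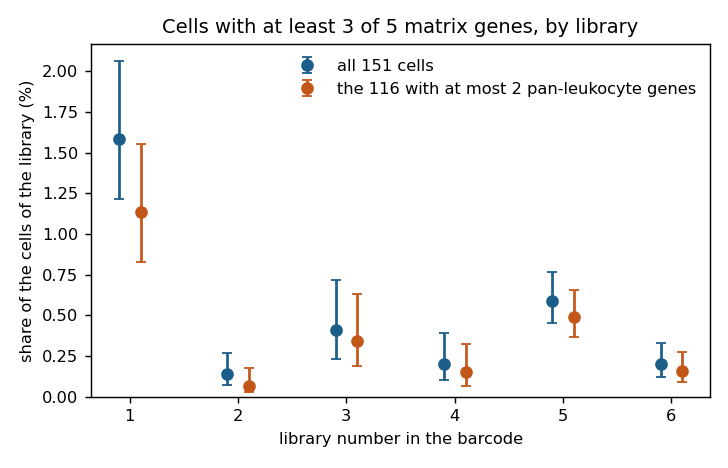
Share of cells (%, y axis) that carried at least 3 of the 5 matrix genes in each library (x axis, library number), with Wilson 95% intervals that cover counting error only. Library 1 had the highest share (1.58%) and library 2 the lowest (0.138%), for all 151 cells (blue) and for the 116 with at most 2 pan-leukocyte genes (orange).

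Most cells lay well inside the rule. All 5 genes were detected in 79 cells, 4 in 54 cells and 3 in 18 cells. The 18 cells just inside had a median of 12.5 UMIs of the 5 genes (3 to 2907), and 11 of them carried 3 or more leukocyte genes. The 53 cells just outside, with 2 genes, had a median of 2 UMIs, and 48 of them carried 3 or more leukocyte genes. A further 845 cells had 1 gene and 31904 had 0.

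The matrix-gene cells had a higher median depth than the rest of the table. They held 2661519 UMIs, with a median of 15590 per cell (795 to 53804) against 11352.5 in the other cells, and a median of 3641 genes. The median mitochondrial share was 2.05% against 1.88%. When every cell was thinned to 1500 UMIs, 119 of the 149 deep enough cells still met the rule. No barcode of a matrix-gene cell recurred in a second library, although 138 barcodes did so among the other cells.

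The levels of the 5 genes describe the choice and carry no test. A level is given throughout as UMIs of a gene per 1000000 UMIs of the pooled cells (CPM), with an exact Poisson 95% interval where one is printed. Because transcripts were counted at their 3′ ends and not scaled by length, each gene is compared with itself in other cells. Where a gene is named as the most abundant or highest of a list, this describes its UMIs, and nothing is read from the order. Dcn stood at 15555 CPM (15406 to 15706), with a lowest, median and highest library of 7725, 14745 and 25079 CPM, against 0.73 CPM in the other cells. Col1a2 stood at 3602 CPM (libraries 2379.8, 3609 and 7230.4) against 0.322, Col3a1 at 2508 CPM (libraries 1857, 2923 and 5111) against 0.24, and Col1a1 at 2319.7 CPM (libraries 1295, 2634 and 5017) against 0.599. Each of these 4 genes was above the other cells in all 6 libraries.

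Prg4 did not share this evenness. Its pooled level was 9303 CPM, but the libraries ran from 20.4 CPM in library 2 through a median of 2633 to 25454 CPM in library 5. A UMI of Prg4 was found in 96 of the 151 cells, with a median of 3 UMIs per cell and a maximum of 5309, and the 6 cells with most of it held 71.0% of its UMIs. The 6 cells of a cluster described below, all from library 5, are not the same set and held 15443 of its 24759 UMIs. Without that cluster its level was 3647 CPM, and without library 5 it was 2879 CPM.

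Genes of the fibroblast type that the rule did not use were present in nearly every cell. Of 8 such markers, at least 3 were detected in 139 of the 151 cells and in 0.0122% of the other cells. Pdgfra, the receptor for platelet-derived growth factor that marks mesenchymal cells, was at 272 CPM (libraries 131, 275 and 401) against 0.0537 in the other cells, and 77.5% of the matrix-gene cells had a UMI of it, compared with 0.0176% of neutrophil-like cells. Lum, a keratan sulfate proteoglycan of collagen fibrils, was at 795 CPM (libraries 204, 761 and 2091), and Serpinf1, a secreted serpin, at 913 CPM (libraries 576, 922 and 1282). Fstl1, a secreted glycoprotein of mesenchymal cells, was at 872 CPM (libraries 102, 844 and 1112). Each was above the other cells in all 6 libraries.

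Over the whole table, 1334 of 15104 genes with at least 120 UMIs (8.83%) were 4-fold or more higher in the matrix-gene cells than in the other cells and 834 (5.52%) were 4-fold or more lower, after adding 1 CPM to both levels. The median log2 fold of all tested genes was -0.22. These counts come from the contrast that the rule itself set up, so they describe the cells and nothing is read from them. Besides the 5 genes of the rule, 277 tested genes reached 120 UMIs only when the matrix-gene cells were counted, which favors a higher call. Counts for gene lists below therefore cover genes outside the rule that had at least 120 UMIs in the other cells alone. Among all genes, 1072 of 14822 such genes (7.23%) were 4-fold or more higher and 834 were 4-fold or more lower. The share of 7.23% is the background for each count of higher genes in a list below. Of the 8 fibroblast markers outside the rule, 6 reached the filter only through the matrix-gene cells, and no count is drawn from them.

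None of the 151 cells had 3 or more of 6 endothelial, 7 mural, 6 skeletal muscle or 3 adipocyte markers. The mural list still summed to 54.1 CPM, against 17.7 in the other cells. The endothelial list had 2 of its 6 genes at 0, with Pecam1 the most abundant, and summed to less than the 70.8 CPM of the other cells, and the skeletal muscle list summed to 3.01 CPM with 5 of 6 genes at 0. At least 3 of the 7 osteoblast markers were found in 13 cells, of the 7 chondrocyte markers in 6, of the 4 tenocyte markers in 9 and of the 5 marrow stromal markers in 27. For synovial fibroblasts, at least 3 of the 6 sublining markers were found in 77 cells. At least 3 of the 6 lining markers, which include Prg4 of the rule, were found in 22.

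The sort had selected for CD45, yet no UMI of its transcript was detected in most matrix-gene cells. A UMI of Ptprc was found in 39 of the 151 cells (25.8%, 19.5 to 33.3) and in 96.2% of the other cells. Counted over 6 genes that leukocytes share (Ptprc, Coro1a, Laptm5, Cd52, Cd53 and Rac2), 76 cells had 0 of the genes, 32 had 1, 8 had 2, 2 had 3, 4 had 4, 6 had 5 and 23 had 6. The distribution had its mass at both ends, and 116 cells (76.8%, 69.5 to 82.8) had at most 2 of the genes, against 2.05% of the other cells. The transcript does not report the protein on which the gate acted, and why these cells passed the gate was not tested.

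**Figure D2:**
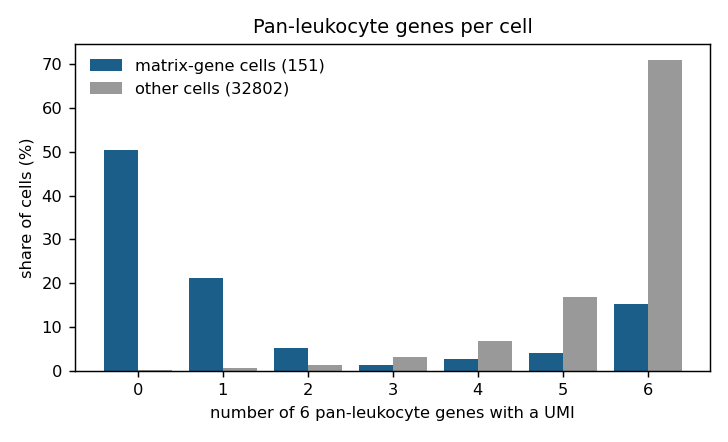
Share of cells (%, y axis) by the number of 6 pan-leukocyte genes with at least 1 UMI (x axis) in the 151 matrix-gene cells (blue bars) and the 32802 other cells (gray bars). Matrix-gene cells piled up at 0 (76 cells) with a smaller group at 6 (23 cells), whereas 71.1% of the other cells had all 6.

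The 116 cells with at most 2 pan-leukocyte genes and the 35 with at least 3 differed in more than those genes. The summed level of the 6 genes, which chose these groups and is given as a description, was 30.0 CPM in the former, 3459.9 in the latter and 4833 in the other cells, with Cd52 the most abundant. The 35 cells had a median of 24572 UMIs against 13918.5 in the 116. Neutrophil markers summed to 4543 CPM in the 35 and to 11.3 in the 116, with Retnlg the most abundant over all the cells, and macrophage markers, led by C1qb, summed to 1122 and 17.0. The 35 still held 14149 CPM of the 5 matrix genes, against 43004 in the 116. The part of droplets that held more than 1 cell, which this difference in depth bears on, was not tested. The levels below are for all 151 cells, and the level in the 116 is given where it differs in a way that bears on the gene.

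Of 11 fibrillar collagens in the table, 3 belonged to the rule, 3 reached 120 UMIs only through the matrix-gene cells and 1 did not reach it. The 4 that reached it in the other cells alone were 4-fold or more higher, but Col11a2, at 9.39 against 1.17 CPM, was under 4-fold without library 6. Among 12 other collagens, 5 passed only through the matrix-gene cells. The 6 that reached 120 UMIs in the other cells alone were 4-fold or more higher. Col5a2 and Col5a1, chains of the type V collagen that nucleates fibrils, were at 602 CPM (libraries 245, 613 and 881) and 243 CPM (libraries 163, 288 and 381). The 3 chains of type VI collagen, a beaded filament around cells, were at 370.5 CPM (Col6a1), 262 CPM (Col6a2) and 285 CPM (Col6a3), each against under 0.1 CPM in the other cells. Col12a1, a fibril-associated collagen, was at 199 CPM but was found in only 46 cells. Col10a1, the collagen of hypertrophic cartilage, had no UMI in the matrix-gene cells, whose 2661519 UMIs allow a level of up to 1.13 CPM.

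Among 12 proteoglycans, Dcn and Prg4 belonged to the rule and 3 reached 120 UMIs only through the matrix-gene cells. Of the 6 that reached it in the other cells alone 5 were higher, and Vcan, at 382 CPM against 131, was the exception. Bgn, the biglycan relative of decorin, was at 750.3 CPM (libraries 564, 826 and 1063) against 0.306. Of 9 matrix glycoproteins that reached it in the other cells alone 7 were higher, and 9 more passed only through the matrix-gene cells. Sparc, a collagen-binding glycoprotein, was at 3183 CPM (libraries 1806, 3814 and 8294) against 15.5, and Comp, the oligomeric matrix protein of cartilage, tendon and synovium, at 1699.8 CPM (libraries 938, 1641 and 3109) against 0.324. Fbn1, the main microfibril protein, was at 548 CPM (libraries 63.5, 375 and 785). Fn1, fibronectin, was at 2362 CPM against 518 in the other cells and 1251 in macrophage-like cells, and its libraries ran from 408 to 4466 CPM. Without library 5 it was at 1526 against 582 CPM, which is under 4-fold.

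**Figure D3:**
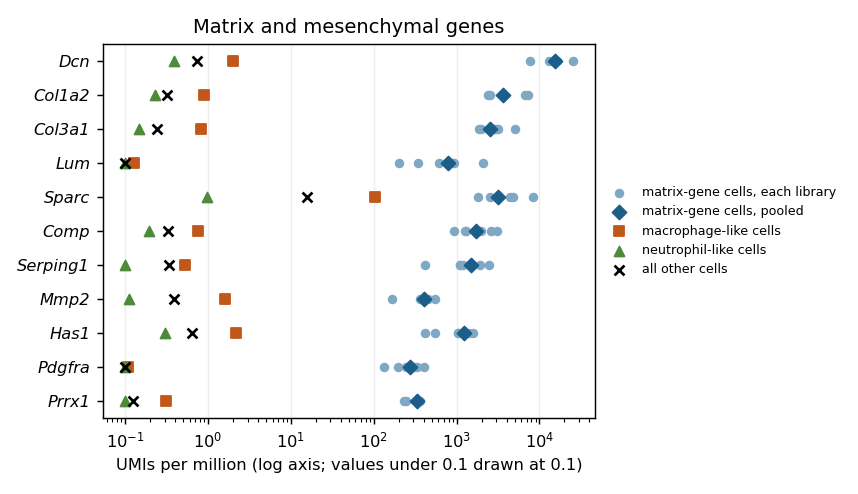
Levels of matrix and mesenchymal genes (UMIs per 1000000, log x axis, values under 0.1 drawn at 0.1) in the matrix-gene cells of each library (light blue points) and pooled (dark diamonds), and in macrophage-like (squares), neutrophil-like (triangles) and all other cells (crosses). All 6 libraries lie to the right of the other cells for each gene shown, for example 131 to 401 CPM against 0.0537 for Pdgfra.

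Of 9 genes of collagen processing that reached 120 UMIs in the other cells alone, 6 were higher, against 7.23% over the whole table. Pcolce, which promotes cleavage of the procollagen C-propeptide, was at 477 CPM (libraries 270.1, 483 and 659.7) against 0.215. Serpinh1, the collagen chaperone of the endoplasmic reticulum, was at 361 CPM (libraries 264, 365 and 671), Lox, which cross-links collagen and elastin, at 303 CPM (libraries 112, 290.5 and 654), and Adamts2, which removes the procollagen N-propeptide, at 193 CPM (libraries 136, 218 and 290.5). These 4 genes varied less between libraries than Prg4.

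Of 14 such matrix proteases, 11 were higher, against 7.23% over the whole table. Among the 11, Mmp14 (108 against 23.5 CPM) was under 4-fold without library 5 or without library 6. Mmp2, the gelatinase of mesenchymal cells, was at 406 CPM (libraries 168, 390.1 and 549) against 0.386 and was found in 118 cells. Adamts1, a proteoglycan-cleaving metalloprotease, was at 314 CPM (libraries 135, 255 and 723). The 2 metalloproteinases best known from arthritic cartilage damage rested on few cells. Mmp3, stromelysin, was at 463 CPM (libraries 0, 101 and 684), but 1 cell held 53.1% of its UMIs and 25 cells had any. Mmp13, collagenase 3, was at 289 CPM (libraries 0, 41.0 and 2752), with a UMI in 11 cells. Mmp9, a neutrophil gelatinase, was at 136 CPM in all 151 cells, at 2.83 in the 116 and at 398 in the 35.

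Of 8 such protease inhibitors, 7 were higher, against 7.23% over the whole table. Timp2, an inhibitor of metalloproteinases, was at 1094 CPM (libraries 707, 1116 and 1371) against 205, and macrophage-like cells had 632. Cst3, the cysteine protease inhibitor cystatin C, was at 4756 CPM (libraries 2156, 5293 and 6350.4) against 1263, which falls short of 4-fold. Serping1, the C1 inhibitor that acts on complement and contact proteases, was at 1493 CPM (libraries 411, 1150.3 and 2459) against 0.337.

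Has1 and Has2, synthases of hyaluronan, were at 1214 CPM (libraries 419, 1042 and 1596) and 188 CPM (libraries 12.7, 139 and 288), against 0.645 and 0.188 in the other cells, whereas Has3 had no UMI, which allows a level of up to 1.13 CPM. Ugdh, which makes the UDP-glucuronate that these synthases use, was at 1185 CPM (libraries 305, 885 and 1433) against 28.0. Tnfaip6, which modifies hyaluronan and is induced by inflammatory cytokines, was at 2508 CPM (libraries 398, 1634 and 5014) against 59.2. Cd44, the hyaluronan receptor, was at 1267 CPM against 1236. Of 7 genes in the list with 120 UMIs in the other cells alone, 3 were higher, against 7.23% over the whole table.

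The matrix-gene cells also carried high levels of chemokine and cytokine transcripts. Among all genes with 120 UMIs in the other cells alone, 7.23% were higher. Of 12 such chemokines 7 were higher, and of 11 such cytokines and mediators 8 were higher. Of these, Cxcl13 fell from 74.4 to 5.91 CPM without library 1 and Il11 from 9.02 to 1.05 CPM without library 5, and neither was then 4-fold higher. Cxcl1, a neutrophil attractant, was at 2776 CPM in the pooled cells against 14.8 in the other cells. By library it stood at 3855, 1463, 4227, 1762, 2047 and 449 CPM in libraries 1 to 6, so that library 6 was the lowest and libraries 1 and 3 the highest. A UMI was found in 70.2% of the cells and in 0.589% of neutrophil-like cells (53.7% and 0.159% after thinning).

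Ccl2, which attracts monocytes, was at 2479.8 CPM (3130.1, 3068, 3462, 1357, 1797 and 936 CPM in libraries 1 to 6). Its relative Ccl7 was at 1941 CPM (2542, 2344, 2824, 657, 1472 and 275 CPM). Both were also high in leukocytes, where Ccl2 stood at 883 CPM in macrophage-like and 2989.7 in mast cell-like cells, and Ccl7 at 608 and 7104. Among the cells with at most 2 pan-leukocyte genes the levels were 2835 and 2231 CPM.

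Il6, the cytokine that drives the acute-phase response, was at 643 CPM (759, 107, 1932, 154, 544 and 110.1 CPM in libraries 1 to 6) against 7.83 in the other cells. Library 3 was the highest, and libraries 2, 4 and 6 were below the others. A UMI was found in 75 of 151 cells (49.7%) and in 59 of the 116, compared with 3.81% of macrophage-like, 1.06% of neutrophil-like and 17.6% of mast cell-like cells. After thinning the shares were 30.9%, 0.767%, 0.159% and 10.0%. The median depth was 15590 UMIs in the matrix-gene cells, 14328 in the macrophage-like, 8645.5 in the neutrophil-like and 4016 in the mast cell-like cells.

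Cxcl12, which retains leukocytes and blood progenitors in tissue, was at 995 CPM (783, 4128, 1821, 147, 698.5 and 220.1 CPM in libraries 1 to 6) against 0.645, with 26.7% of its UMIs in 1 cell. Csf1, the growth factor of macrophages, was at 313 CPM (libraries 67.7, 274 and 549) against 25.9. Ptgs2, the cyclooxygenase COX-2, was at 456 CPM (libraries 0, 529 and 718) against 186, which is under 4-fold, and Ptgis, prostacyclin synthase, at 142 CPM against 0.0641. Cxcl2, a neutrophil attractant made by myeloid cells, was at 760 CPM, at 318 in the 116 cells and at 1630.1 in the 35, against 766 in the other cells. Ccl20 had no UMI, which allows a level of up to 1.13 CPM.

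**Figure D4:**
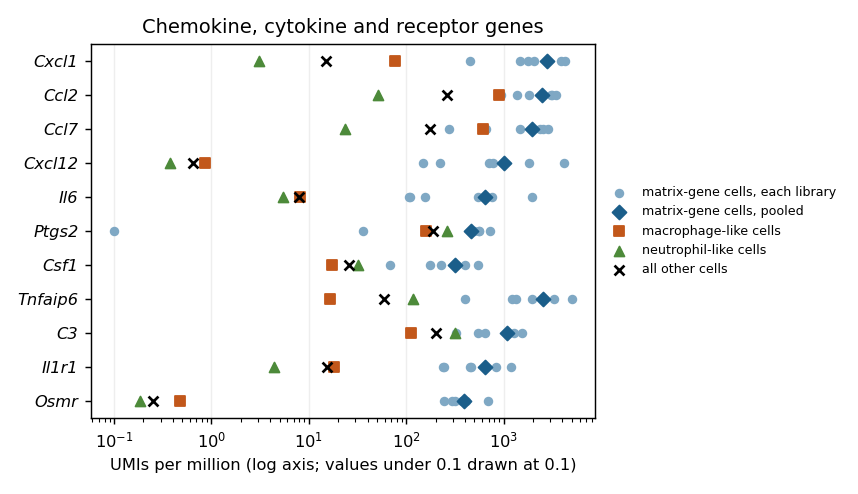
Levels of chemokine, cytokine, complement and receptor genes (UMIs per 1000000, log x axis, values under 0.1 drawn at 0.1) in the matrix-gene cells of each library (light blue points) and pooled (dark diamonds), and in macrophage-like (squares), neutrophil-like (triangles) and all other cells (crosses). Il6 ran from 107 to 1932 CPM over the libraries, all above the 7.83 CPM of the other cells, whereas Ptgs2 was at 0 in 1 library and its pooled level (456) was under 4-fold of the other cells (186).

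Receptors for the cytokines of the inflamed joint were present. Il1r1, the signaling receptor for interleukin 1, was at 635 CPM (libraries 238, 454 and 1198) against 15.3. Egfr and Fgfr1, growth factor receptor kinases, were at 455 CPM (libraries 305, 415 and 997) and 450.1 CPM (libraries 231, 391 and 540.1), against 6.34 and 21.8. Osmr, the oncostatin M receptor, was at 390.0 CPM (libraries 245, 346 and 691) against 0.252. Of 15 receptors with 120 UMIs in the other cells alone, 8 were 4-fold or more higher and none was lower. Over the whole table, 1072 of 14822 such genes (7.23%) were higher and 834 were lower. Notch3, 1 of the 8, was under 4-fold without library 2.

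Of 12 growth factors with 120 UMIs in the other cells alone 8 were higher, against 7.23% over the whole table. Igf1 was at 467 CPM (libraries 139.8, 224 and 734) against 13.3, Gas6, a ligand of TAM receptor kinases, at 269 CPM against 32.8 (188 in macrophage-like cells), Tgfb2 at 201 CPM (libraries 105, 197 and 351) against 0.409, and Bmp2 at 149 CPM (libraries 25.5, 145 and 254) against 5.02. Of 8 such complement genes 7 were higher, against the same 7.23%. C3, the central component, was at 1069 CPM (libraries 322, 867 and 1539.6) against 199, but without library 1 it was at 717 against 208 CPM, which is under 4-fold. C4b was at 405 CPM (libraries 265, 329 and 670.3) against 15.3. Cfi, a protease that cleaves complement fragments, had no UMI, which allows a level of up to 1.13 CPM.

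Of 9 mesenchymal transcription factors in the table, 3 did not reach 120 UMIs and 4 reached it only through the matrix-gene cells, so no count is drawn from them. Prrx1, a homeobox factor of limb mesenchyme, was at 329 CPM and varied little, with libraries at 231, 339 and 362. Twist1, a basic helix-loop-helix factor, was at 119 CPM (libraries 77.9, 119 and 349.6). Creb5, which is associated with lubricin expression in the joint, was at 597 CPM (libraries 234, 634 and 727) against 68.1, and macrophage-like cells had 249.6. Meox2 was at 73.3 CPM against 0.128.

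Genes of the adiponectin and PEPITEM pathway were measured in the same cells. Ywhaz, which encodes the 14-3-3 protein from which the peptide is cut, was at 279.5 CPM (libraries 228, 281 and 372) against 378, and the adiponectin receptors Adipor1 and Adipor2 were at 83.4 and 65.8 CPM against 146 and 98.9. Of 15 tested genes 2 (13.3%) were 4-fold or more higher, against 7.23% over the whole table, and nothing is read from this count. They were S1pr3, a sphingosine-1-phosphate receptor, at 37.2 against 2.34 CPM, and Sphk1, a kinase that makes its ligand, at 28.9 against 2.28 CPM. Cdh15, a cadherin named as a putative binding partner of PEPITEM, had no UMI, which allows up to 1.13 CPM. None of these is a comparison of treatments.

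The 20 genes with the largest fold, each with at least 50 UMIs and higher in all 4 libraries that held 10 or more of the cells, were the 5 genes of the rule and 1500015O10Rik, Comp, Mgp, Serping1, Myoc, Gfpt2, Apod, Lum, Has1, Clec3b, Igfbp5, Cxcl12, Fstl1, Bgn and Abi3bp. Apod, a lipocalin, was at 2147 CPM (libraries 1224, 1718 and 3578), Myoc, myocilin, at 1089 CPM (libraries 622, 895 and 1412), and Gfpt2, which opens the hexosamine pathway toward glycan precursors, at 1498 CPM (libraries 545, 1096 and 1803). 1500015O10Rik stood apart in this list, since 1 cell held 73.8% of its UMIs and its libraries ran from 0 to 4394 CPM.

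The cells were then divided by Leiden clustering of their own expression into 8 clusters, numbered by size. What follows describes the clusters, and since their genes formed them, no test is given. Many of the genes that lead a cluster by fold rested on 1 to 3 cells, so the number of cells with a UMI is stated. The division depended on the settings: at resolution 0.4 most cells of clusters 1, 2 and 3 joined, as did clusters 4 and 5 and nearly all of clusters 6 and 7, whereas cluster 8 stayed apart. With fewer and with more variable genes the cells of cluster 7 made up 43.6% and 51.6% of the cluster that held them, and with fewer those of cluster 3 made up 39.5%. Clusters 1, 2, 3 and 7 were left unnamed because too few of 1 type's markers led them or because markers of more than 1 type did.

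Cluster 1 (29 cells, all 6 libraries) and cluster 3 (18 cells, from libraries 1, 3 and 5) had the highest summed levels of sublining markers, 2367 and 2254 CPM, with at least 3 of the 6 markers in 22 and 18 cells. Pi16, a marker of adventitial and sublining fibroblasts, was at 1175 and 1062 CPM in them and Cd34 at 544 and 640 CPM. Over all matrix-gene cells Pi16 was at 423 CPM (libraries 25.4, 101 and 856), and at 98.5 CPM without library 1, which held 23 cells of these clusters. Cluster 1 was led by fold by Cxcl13 (3 cells), Cfd (2 cells), Col6a6 (6 cells) and Ppp2r2b (9 cells). It also had the highest Cxcl12 (2966 CPM, 26 cells) and C3 (3095 CPM, 26 cells) and, of the marrow stromal list, Kitl (358 CPM, 18 cells). Cluster 3 was led by Il11 (1 cell), Tll1 (2 cells), Pgf (2 cells) and Pla2g2e (6 cells). Cxcl1 was at 6746 CPM in all 18 of its cells, Ccl2 at 6905 CPM and Ccl7 at 5168 CPM in 17 cells each, Il6 at 1338 CPM in 14 cells and Tnfaip6 at 5118 CPM in 17 cells. In cluster 7, by contrast, the levels were 343 CPM for Cxcl1, 565 for Ccl2, 66.7 for Ccl7 and 178 for Il6.

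Cluster 2 (29 cells, all 6 libraries) had the most Dcn (26755 CPM) and held 13 cells with Lepr (344 CPM, 47.9% of the UMIs in 1 cell), a receptor of marrow stroma. Its Mmp3 (1599 CPM) came from 8 cells, with 96.5% of the UMIs in 1 of them.

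Cluster 6 (17 cells, from libraries 1, 3, 5 and 6) was osteoblast-like. It was led by Tnn (578 CPM, 6 cells), a bone-associated tenascin, Mmp13 (3470 CPM, 7 cells) and Fat3 (8 cells), and 9 of its cells had at least 3 of the 7 osteoblast markers. Bglap and Bglap2, near-identical osteocalcin genes whose reads may be split between them, were at 1179 and 1504 CPM in 8 cells each, Runx2, the transcription factor of bone-forming cells, at 1260 CPM in 14 cells, and Col1a1 was at its highest, 8892 CPM. The chemokines were low here: Cxcl1 was at 296 CPM and Ccl2 at 520 CPM.

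Cluster 7 (17 cells, from libraries 1, 4, 5 and 6) carried cartilage and tendon genes together. Its lead by fold was Cytl1, all from 1 cell, followed by Col2a1 and Lgr6 (3 cells each). Chad, chondroadherin of cartilage, was at 3297 CPM in 15 cells with 51.8% of the UMIs in 1 of them, Thbs4, a thrombospondin of tendon, at 2905 CPM in 14 cells, and Cilp, a protein of the intermediate layer of cartilage, at 4249 CPM in 15 cells. Col2a1, the collagen that defines hyaline cartilage, was found in 3 cells and Acan, aggrecan, in 4. Prg4 stood at 21108 CPM and was detected in all 17 cells.

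Cluster 8 held 6 cells, all from library 5, and was lining fibroblast-like. Prg4 was at 144638 CPM in them, and the other clusters ranged from 721 to 21108 CPM. Clic5, an intracellular channel family protein that marks the lining, was found in all 6 cells (1311 CPM) and in none of the other 145, Hbegf, an EGF-family ligand, was at 4496 CPM in 5 cells, and 5 of the 6 cells had at least 3 of the 6 lining markers. Fn1 was at 17702 CPM and Has1 at 3531 CPM, both detected in all 6 cells, whereas Col1a1 was at 253 CPM and Col3a1 at 65.6 CPM. Since the cells came from a single library, a cell type and that library cannot be told apart here.

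Clusters 4 and 5 held most cells with at least 3 pan-leukocyte genes. Cluster 4 (18 cells) was led by Camp, Ngp, Ltf and S100a8, granule and alarmin genes of neutrophils, and 15 of its cells had at least 3 of the 5 neutrophil markers. Cluster 5 (17 cells) had macrophage markers at 1958 CPM, with at least 3 of 5 in 7 cells, and its lead by fold, Igkc, came from 1 cell. Their median depths, 24686.5 and 23099 UMIs, were the highest of the 8, and their Dcn levels, 8718 and 6214 CPM, the lowest. Of the 35 cells in both clusters, 34 had at least 3 pan-leukocyte genes.

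**Figure D5:**
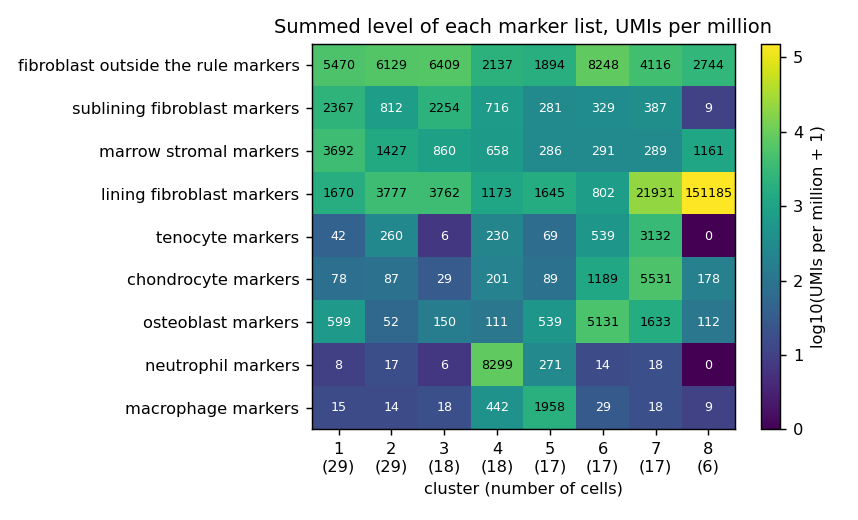
Summed levels of 9 marker lists (rows, UMIs per 1000000 printed in each box; color scale log10 of the level plus 1) in the 8 clusters of matrix-gene cells (columns, number of cells in parentheses). Lining markers reach 151185 CPM in cluster 8, osteoblast markers 5131 in cluster 6, chondrocyte and tenocyte markers 5531 and 3132 in cluster 7, neutrophil markers 8299 in cluster 4 and macrophage markers 1958 in cluster 5.

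The libraries held different mixes of these clusters. Of the 53 cells of library 1, 23 were in clusters 1 and 3 and 7 in clusters 6 and 7, whereas of the 15 cells of library 6, 1 was in clusters 1 and 3 and 9 in clusters 6 and 7. The summed chemokine level was 12482, 12414, 16440, 5881, 7656 and 2489 CPM in libraries 1 to 6. The summed osteoblast markers were at 463, 1452, 142, 21.0, 581 and 3387 CPM. Libraries 2, 3 and 4, with 8, 12 and 8 cells, each had 3 in clusters 1 and 3. They had 0, 1 and 1 in clusters 6 and 7. Of the 55 cells of library 5, 14 were in clusters 1 and 3 and 16 in clusters 6 and 7. The part of the cluster mix in the chemokine levels by library was not tested.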

How the data were processed

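Single-cell RNA-seq of CD45+ synovial cells from 6 samples was analysed. The authors used Cell Ranger (version 7, per the labels; build mm10) for alignment, removed ambient RNA with SoupX and doublets with DoubletFinder, and filtered cells with Seurat. They deposited one table of whole UMI counts, not scaled for depth, with 20394 genes and 32953 cells and 47273569 to 123367661 UMIs per library. The deposited counts included 1.72e+06 entries written out as 0. Whether the counts were already corrected for ambient RNA, which bears on the low levels of matrix genes in the other cells, was not tested. No further doublet caller was run, and remaining doublets and ambient RNA can add leukocyte transcripts to a cell.

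Members and gene lists were chosen with earlier results of these data known. Of 318 list symbols 315 were in the table, 4 of them under an older symbol. Named genes are those of the rule, the marker lists, the PEPITEM axis, the 4 highest and the undetected members of each function list, the 20 largest folds and the 10 leading genes of each cluster. Mmp9, Mmp14, Notch3, Cxcl2, Vcan, Has2, Col5a1, Cilp, Tbx4 and Hoxa9 fall outside this rule and were named after their values were seen. Some listed genes are not reported here.

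Levels were UMIs summed over cells per 1000000 UMIs. Folds used 1 CPM added to both levels and genes with at least 120 UMIs. Comparison cells (3574 macrophage-like, 11368 neutrophil-like, 5561 B cell-like, 1115 T cell-like, 165 mast cell-like) had 3 or more markers of 1 class only. Members were scaled to 10000 counts per cell, log-transformed, reduced to 1000 variable genes and 15 components, and clustered with Leiden (10 neighbors, resolution 0.8, seed 0) in scanpy 1.11.5 and igraph 0.11.9. Intervals were Wilson or exact Poisson at 95%, and a count of 0 was read as up to 3 counts. No group test was run. The fold calculation was tested on simulated data.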

Additional observations from a re-analysis of the deposited data

How the results depend on the processing

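No paired analysis was possible because the library numbers of the barcodes could not be linked to the numbered samples. The share of matrix-gene cells, 0.458% by the rule, was 0.619% with at least 2 of the 5 genes, 0.240% with all 5, 0.352% without cells that had 3 or more pan-leukocyte genes, 0.365% after thinning to 1500 UMIs and 0.306% as the median of the libraries. It ranged from 0.331% to 0.535% when 1 library was left out, the lowest without library 1. The summed level of the 5 genes, 33287 CPM, was 34984 in cells with all 5, 43004 in the 116 cells, 33541 as a mean over cells and 38206 as a mean over the 4 libraries with at least 10 cells. It was 28076 without the 6 cells of cluster 8, an alternative chosen after seeing the data, and ranged from 26236 to 40698 when 1 library was left out. The 1334 genes past 4-fold became 2447 at 2-fold and 705 with 10 CPM added. Of the 1334, 97.6% were also past 4-fold in the 116 cells, where 1502 genes passed. The 116 are part of the 151, hold 1765243 of their 2661519 UMIs and were set against the same other cells. This overlap is therefore no independent check, and nothing is read from it. The share of cells with Ptprc, 25.8%, was 14.1% after thinning. At resolution 0.4 the clusters numbered 5. Among 18 genes followed, the levels that moved by over 1.5 times were Prg4 (3647 CPM without cluster 8, 14601 without library 1, 2879 without library 5), Mmp3 (787 in cells with all 5 genes) and Fn1 (1526 without library 5). The cause was not tested. Over the 4 other clustering settings for all cells, the cells of a cluster that stayed together numbered 15 to 25 of 29 in cluster 1, 13 to 28 of 29 in cluster 2, 17 to 18 of 18 in cluster 3, 13 to 18 of 18 in cluster 4, 16 to 17 of 17 in clusters 5 and 7, 9 to 17 of 17 in cluster 6 and 5 to 6 of 6 in cluster 8. They often shared a larger cluster with others: at the least they made up 29.9%, 30.2%, 26.9%, 51.4%, 48.6%, 50%, 43.6% and 100% of it, for clusters 1 to 8. Clustering the 116 cells alone gave 6 clusters. There 14 of the 28 such cells of cluster 1 stayed together, 11 of 29 in cluster 2 and 12 of 18 in cluster 3. In clusters 6, 7 and 8 the numbers were 15 of 17, 16 of 17 and 6 of 6. With 8 cells each in libraries 2 and 4, levels there rest on few cells.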

Other observations

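The matrix-gene cells carried transcripts of genes that mark position along the limb. Hoxd11, a homeobox gene of the distal limb, had a UMI in 32 of the 151 cells (19.2 CPM, 14.3 to 25.2) and was at 0.00207 CPM in the other cells. Pitx1 and Tbx4, transcription factors that specify the hindlimb, were found in 19 and 22 cells (12.8 and 10.9 CPM), with no UMI of Pitx1 in the 32802 other cells. Hoxc10 was found in 21 cells and Hoxa10 in 26 cells. The list summed to 92.8 CPM in the matrix-gene cells (121 in the 116 cells with at most 2 pan-leukocyte genes, 36.8 in the 35 others) and to 2.71 CPM in the other cells. By library it stood at 86.0, 5.10, 73.9, 48.9, 119 and 157 CPM in libraries 1 to 6. Only 1 of its 11 measured genes, Hoxa9, had enough UMIs over all cells to be tested for 4-fold, and it did not pass.

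All 6 cell cycle genes in the list were 4-fold or more lower than in the other cells, against 5.52% of all tested genes, in the contrast that the rule set up. They summed to 19.9 against 551 CPM, with libraries from 0 (library 4) to 97.4 CPM (library 6), and the 3 cells with at least 3 of them all had 3 or more pan-leukocyte genes.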
